A study of Mus musculus with 10 samples.

Results

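The genes described here build, cap or regulate telomeres: Pinx1, the tankyrase genes Tnks and Tnks2, the telomerase genes Tert and Dkc1, and the shelterin genes Terf1, Terf2 and Tinf2. Every probe whose platform annotation gave 1 of these 8 symbols was taken, which gave 17 of the 45281 probes on the array. The set was chosen by name around Pinx1, which had been picked because its difference between LysM-KI and control cells was among those with the smallest unadjusted p in these data. The Pinx1 difference is therefore given as a description with no test, and it supports nothing else in the text.

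RNA came from LSK cells of mouse bone marrow, a sorted fraction without lineage markers and with Sca1 and cKit on its surface, in which haematopoietic stem cells and early progenitors are found. There were 5 control and 5 mutant LysM-KI mice, 1 Illumina array per mouse, and no treatment is named. LysMCre is given as the strain of every mouse. In lines of that name the lysozyme gene Lyz2, active in myeloid cells, drives Cre. All mice were 9 to 16 weeks old. The labels name neither the knocked-in allele nor the sex of the mice, and the control group shares the LysMCre label.

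Telomeres are capped by shelterin, in which Terf1 and Terf2 bind the double-stranded repeat and Tinf2 joins them. Telomerase extends the repeat with Tert, its reverse transcriptase, and an RNA template that is held by dyskerin, the product of Dkc1, in a particle that dyskerin shares with other small RNAs. PINX1 binds TERT and TRF1 in human cells and inhibits telomerase there, and it is also a nucleolar protein. Tankyrases are poly(ADP-ribose) polymerases that release human TRF1 from telomeres. Mouse TRF1 lacks the tankyrase-binding motif of the human protein, whereas the destruction of axin by tankyrases is shared by both species. Haematopoietic stem and progenitor cells have weak telomerase activity, and inherited defects of telomerase genes lead to bone marrow failure in people.

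A probe was called detected on an array at a detection p under 0.05, and a probe was kept for testing if 5 or more of the 10 arrays detected it, which left 17245 probes. Of the 17 telomere and tankyrase probes, 12 were kept and 5 were not. The kept probes covered 6 genes, since the single probes of Tert and Tinf2 were left out. Only 5 probes were detected on all 10 arrays, 1 each for Pinx1, Tnks, Tnks2, Terf1 and Dkc1. Values below are normalized log2 intensities of single probes, and levels of different probes are not compared. In bulk RNA, fewer cells of a type and less RNA per cell cannot be told apart.

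Between 15234 and 17093 probes were detected on control arrays and between 16430 and 18801 on LysM-KI arrays. Median raw intensities ran from 102.3 to 140 over the 10 arrays, and the number of arrays limits the precision. Control replicate 4, with the lowest number of detected probes, stood apart on the first principal component, and LysM-KI replicate 2 on the second. Control replicate 4 and LysM-KI replicate 4 had high Xist levels, 11.81 and 11.69 against at most 7.08 elsewhere. The LSK genes Kit, Cd34, Flt3 and Cd48 were detected on all 10 arrays, Slamf1 on 2, and no named probe stood for Ly6a (Sca1). No pair of arrays was a near copy (smallest mean absolute log2 difference 0.513).

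**Figure D1:**
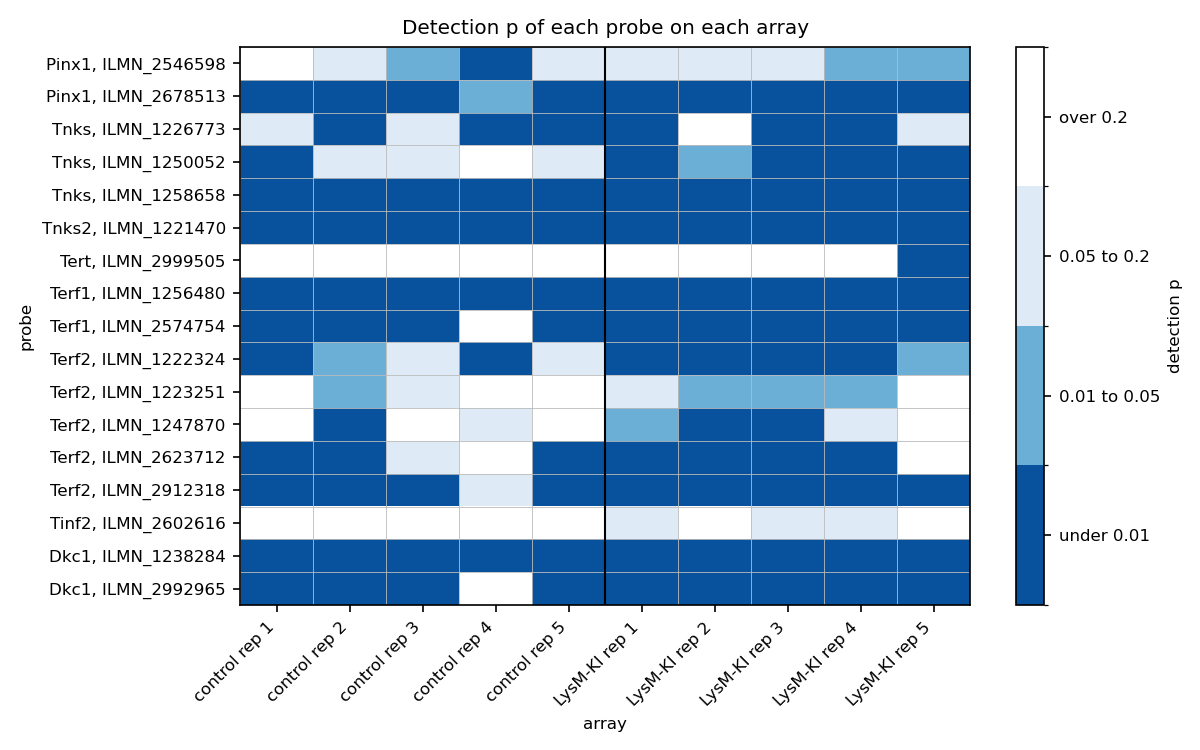
Detection p of each of the 17 probes (rows) on each of the 10 arrays (columns, control left of the line, LysM-KI right), in 4 classes from dark (under 0.01) to white (over 0.2). The 5 probes detected on all 10 arrays form dark rows, with Pinx1 a class lighter on control replicate 4, Tinf2 is not detected on any array, and Tert is dark on LysM-KI replicate 5 alone.

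Pinx1 had 2 probes, of which ILMN_2678513 was detected on all 10 arrays. Its normalized log2 intensity was 6.81, 6.69, 6.43, 5.85 and 6.42 in control replicates 1 to 5. The LysM-KI arrays, in the same order, read 7.47, 7.91, 7.77, 7.39 and 7.76. The groups did not overlap, and the lowest LysM-KI array lay 0.59 above the highest control array. The log2 difference was 1.22 (SE 0.24, n = 5 per group), a 2.33-fold higher level in LysM-KI cells, from means of 7.66 ± 0.22 (SD, n = 5) and 6.44 ± 0.37. Among all kept probes, 0.574% had groups that did not overlap with LysM-KI higher. That share is background only, since this contrast chose Pinx1. In the raw table the probe read 132.5 to 249.3 on control and 263.1 to 372.9 on LysM-KI arrays, so the groups were also apart before normalization. The lowest raw value was that of control replicate 4, where the detection p was 0.0107. Without background correction the log2 difference was 0.69, without control replicate 4 it was 1.07, and without both arrays that stood apart it was 1.01.

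The other Pinx1 probe, ILMN_2546598, did not show this pattern. It was detected on 2 control and 2 LysM-KI arrays and was not kept. Its values were 4.82 to 6.42 in control and 4.94 to 5.37 in LysM-KI cells, with a log2 difference of -0.22. Both ranges lay mostly at background, and the highest value was that of control replicate 4. The Pinx1 difference thus rests on 1 probe, since the second was not detected on 6 of the 10 arrays.

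**Figure D2:**
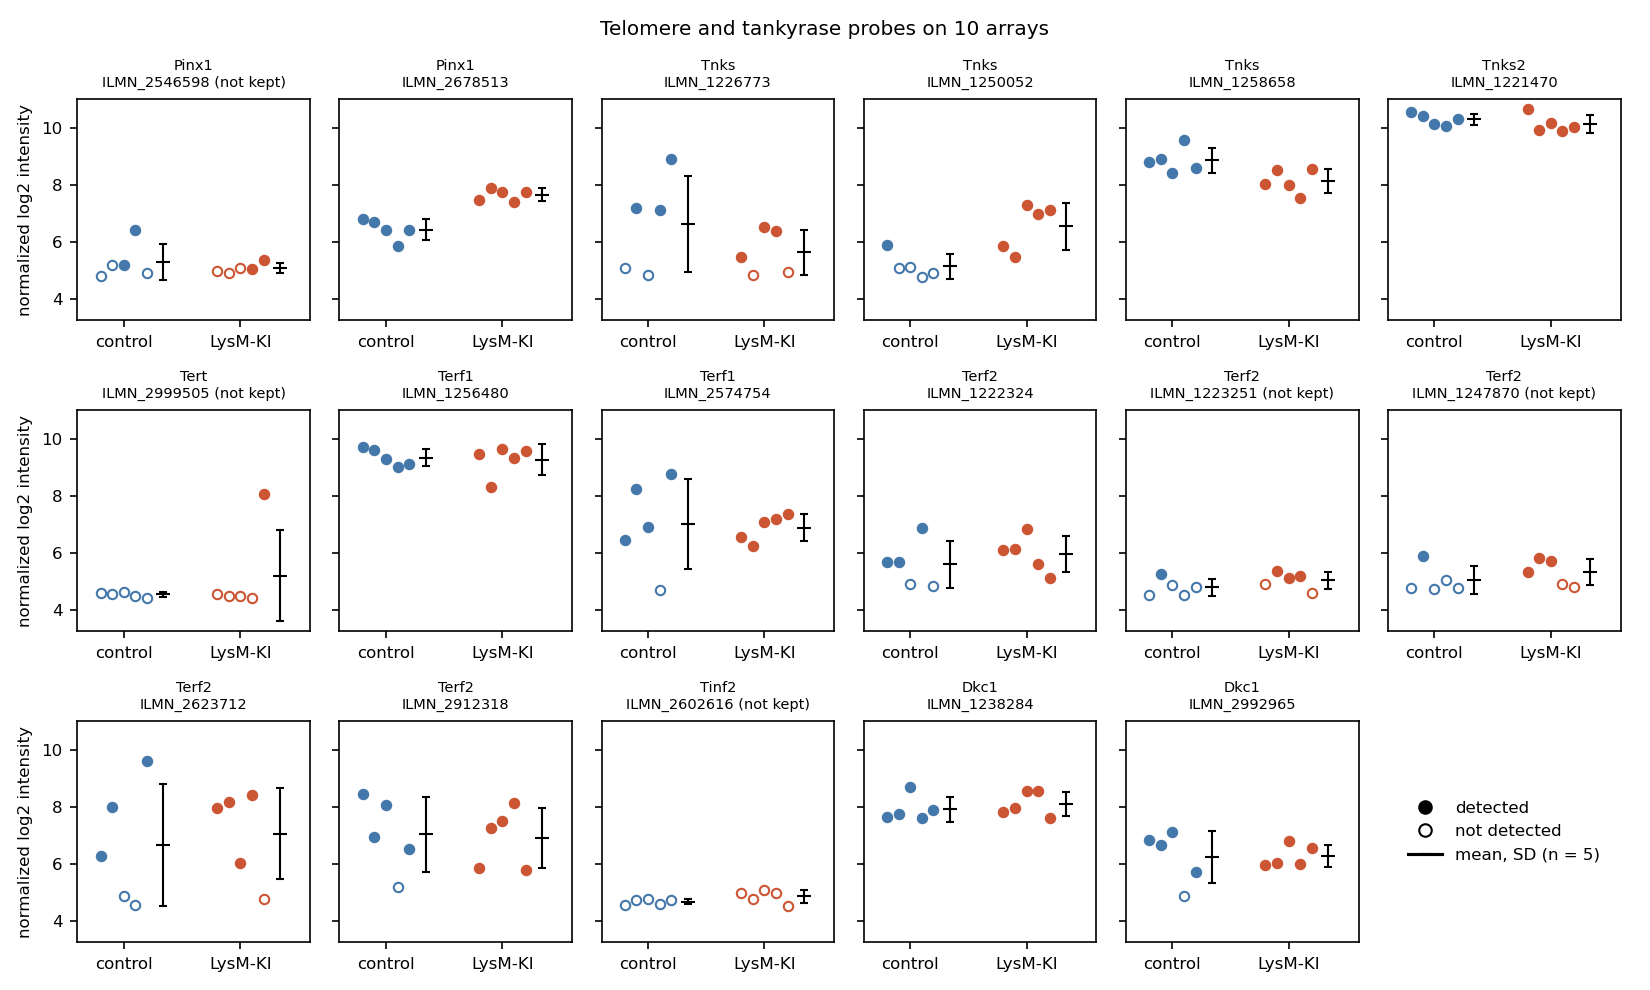
Normalized log2 intensity of each of the 17 probes on the 5 control and 5 LysM-KI arrays (replicates 1 to 5 from left to right), with the mean and SD beside each group; filled points are detected and open points are not. The groups of Pinx1 probe ILMN_2678513 do not overlap, while the 3 Tnks probes differ in direction and Tert has 1 high array.

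Tnks, which encodes tankyrase 1, had 3 probes, all kept, and they did not share a direction. ILMN_1258658 was detected on all 10 arrays. Its values in control replicates 1 to 5 were 8.81, 8.91, 8.44, 9.58 and 8.61. For LysM-KI replicates 1 to 5 the values were 8.05, 8.52, 7.99, 7.56 and 8.55. All 5 LysM-KI arrays lay below the control mean, with some overlap, as LysM-KI replicates 2 and 5 lay above the lowest control array. The log2 difference was -0.74 (SE 0.29), from 8.87 ± 0.44 to 8.13 ± 0.41 (SD, n = 5), and it did not pass limma's test (adjusted p = 0.881 over 17245 probes, 95% interval -1.38 to -0.09). Without the Xist-high arrays, which held the highest control and the lowest LysM-KI value, it was -0.41.

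The second Tnks probe, ILMN_1250052, went the other way. It was detected on all 5 LysM-KI arrays but on only 1 control array, so it passed the filter through the group where it was high. Its values were 5.89, 5.10, 5.13, 4.77 and 4.91 in control replicates 1 to 5. On the LysM-KI arrays, in the same order, they were 5.85, 5.48, 7.32, 6.99 and 7.13. LysM-KI replicates 3, 4 and 5 stood well above all control arrays, and replicates 1 and 2 lay within the control range. This probe differed by 1.39 on the log2 scale (SE 0.40, limma adjusted p = 0.685), or by 0.58 without background correction. LysM-KI arrays detected more probes in general, as given above, and the part of that in this difference was not tested.

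The third Tnks probe, ILMN_1226773, was detected on 3 arrays of each group. It ran from 4.84 to 8.89 in control and from 4.86 to 6.53 in LysM-KI cells. Both groups held arrays with and without a detected signal, and the highest value was that of control replicate 5. Its log2 difference was -0.99 (SE 0.73, limma adjusted p = 0.948), or -0.56 without background correction and -0.43 without control replicate 5. Averaged over the 3 probes, Tnks differed by -0.11. With the group means removed, the pairwise correlations of the 3 probes over the 10 arrays were -0.32, -0.11 and -0.04, as a description of probes on shared arrays. Probes of both signs were common on this platform: 62.4% of the 852 genes with exactly 3 kept probes had them.

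Tnks2, the gene of tankyrase 2, had 1 probe, ILMN_1221470, detected on all 10 arrays. It read 10.54, 10.42, 10.14, 10.08 and 10.30 in control replicates 1 to 5. The 5 LysM-KI arrays read 10.66, 9.93, 10.16, 9.90 and 10.02. The groups overlapped widely, and LysM-KI replicate 1 was the highest of the 10. Tnks2 differed by -0.16 on the log2 scale (SE 0.23, limma adjusted p = 0.960), with a 95% interval from -0.66 to 0.34. Its pooled within-group SD of 0.26 was among the smaller ones, and 92.8% of kept probes had one at least as large.

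Among the telomerase genes, Tert, the reverse transcriptase, was not well above background on 9 of 10 arrays. Its probe ILMN_2999505 read 4.61, 4.58, 4.65, 4.51 and 4.44 in control replicates 1 to 5. LysM-KI replicates 1 to 5 read 4.56, 4.49, 4.52, 4.44 and 8.08. Only LysM-KI replicate 5 detected it, with a raw intensity of 336.6 beside 94.2 to 126.2 on control arrays. No fold is given, because the LysM-KI mean did not exceed the background bound of the control group. A probe detected on 1 array and as far above the next one (3.44 on the log2 scale) was uncommon: of 4358 probes detected on a single array, 55 were of this kind, 3 of them on LysM-KI replicate 5 and 18 on control replicate 4.

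Dkc1, the dyskerin gene, had 2 kept probes. ILMN_1238284, detected on all 10 arrays, read 7.66, 7.76, 8.68, 7.61 and 7.90 in control replicates 1 to 5. The LysM-KI values, replicates 1 to 5, were 7.83, 7.96, 8.54, 8.57 and 7.62. The group ranges nearly coincided, and both held arrays near the top and near the bottom. The log2 difference was 0.18 (SE 0.30, limma adjusted p = 0.964), with a 95% interval from -0.47 to 0.83, and it was -0.014 without the Xist-high arrays. The second probe, ILMN_2992965, was detected on 9 arrays, all but control replicate 4, and had a log2 difference of 0.033 (SE 0.42), which turned sign under several settings. The 2 probes correlated at 0.39 over the 10 arrays with group means removed, above the median of 0.17 over 7820 pairs of kept probes of 1 gene.

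The shelterin genes came next. Terf1 (TRF1), the repeat-binding protein that counts telomere length, had 2 kept probes. ILMN_1256480, detected on all 10 arrays, read 9.70, 9.59, 9.28, 9.02 and 9.10 in control replicates 1 to 5. LysM-KI replicates 1 to 5 read 9.47, 8.33, 9.63, 9.32 and 9.57. Apart from LysM-KI replicate 2, which was the lowest of the 10, the LysM-KI arrays lay within the control range. Terf1 differed by -0.073 on the log2 scale (SE 0.30, limma adjusted p = 0.988), with a 95% interval from -0.72 to 0.58, and by 0.16 without LysM-KI replicate 2. The second probe, ILMN_2574754, was detected on all arrays but control replicate 4 and ran from 4.73 to 8.75 in control and from 6.25 to 7.37 in LysM-KI cells. Its log2 difference was -0.13 (SE 0.66), or 0.31 without control replicate 5.

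Terf2 (TRF2), which protects the chromosome end from being read as a break, had 5 probes, 3 of them kept and 0 detected on all 10 arrays. ILMN_2912318, the kept probe with the highest mean, read 8.45, 6.96, 8.07, 5.20 and 6.52 in control replicates 1 to 5. The LysM-KI arrays, in the same order, read 5.87, 7.25, 7.50, 8.14 and 5.79. Both groups spread over more than the difference between them. This probe differed by -0.13 on the log2 scale (SE 0.66, limma adjusted p = 0.989), with a 95% interval from -1.58 to 1.32. ILMN_2623712 had an even wider spread, from 4.59 to 9.59 in control and from 4.79 to 8.41 in LysM-KI cells. Only 0.412% of kept probes had a pooled SD as large as its 1.87. Its log2 difference was 0.40 (SE 1.02), and that of ILMN_1222324 was 0.35 (SE 0.43). The other 2 Terf2 probes were each detected on 1 control and 3 LysM-KI arrays.

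Tinf2 (TIN2), which bridges Terf1 and Terf2, was not well above background on any array with its 1 probe, ILMN_2602616. It read 4.57 to 4.76 in control and 4.55 to 5.11 in LysM-KI cells, and no fold is given where both groups are below background. These values do not show that Tinf2 or Tert was not transcribed, since only a single probe stood for each.

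Counted together, 0 of the 11 kept probes of the members other than Pinx1 passed limma's adjusted threshold of 0.05, and the same was true of all kept probes (0%, smallest adjusted p 0.392). At an unadjusted p under 0.05 there were 2 of 11, against 5.35% of all kept probes, and both were Tnks probes. ILMN_1250052 was the 1 probe higher in LysM-KI cells (3.4% of all kept probes) and ILMN_1258658 the 1 probe lower (1.94%). Since ILMN_1250052 had entered through the group where it was high, it does not count toward this share, and the other 10 probes gave 1. In 0 of the 11 did the groups fail to overlap, against 0.91% of all kept probes. The log2 differences were above 0 for 5 probes and below 0 for 6. Spread went with detection. The 5 probes detected on all 10 arrays had pooled SDs from 0.26 to 0.43, all below the median of 0.65 over all kept probes, and the 7 others had SDs from 0.66 to 1.87, all above it. The same held over all kept probes, with a median of 0.54 for those detected on all 10 arrays and 0.83 for the others.

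**Figure D3:**
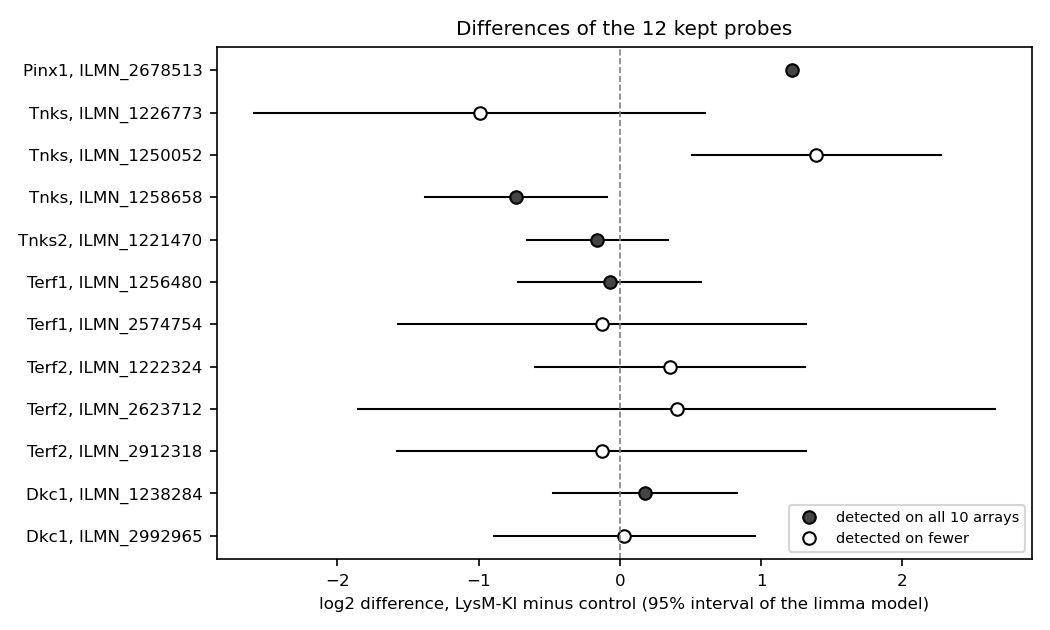
Log2 difference between LysM-KI and control cells for the 12 kept probes, with 95% intervals of limma's model except for Pinx1, which was chosen for this contrast. Filled points were detected on all 10 arrays. The 3 Tnks probes lie on both sides of 0, and the intervals of Tnks2, Terf1, Terf2 and Dkc1 all include 0.

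The difference of the Pinx1 probe kept its sign under all settings tried, from 0.69 to 1.39, and so did those of Tnks probes ILMN_1258658 and ILMN_1250052. The authors' processed values gave 0.69 for Pinx1. For Pinx1 the kept sign supports nothing, since this contrast chose the gene and the groups of its probe did not overlap. For ILMN_1250052 it is no measure of stability, since the filter admitted that probe through its high group. Neither Tnks probe passed the test under any setting.

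**Figure D4:**
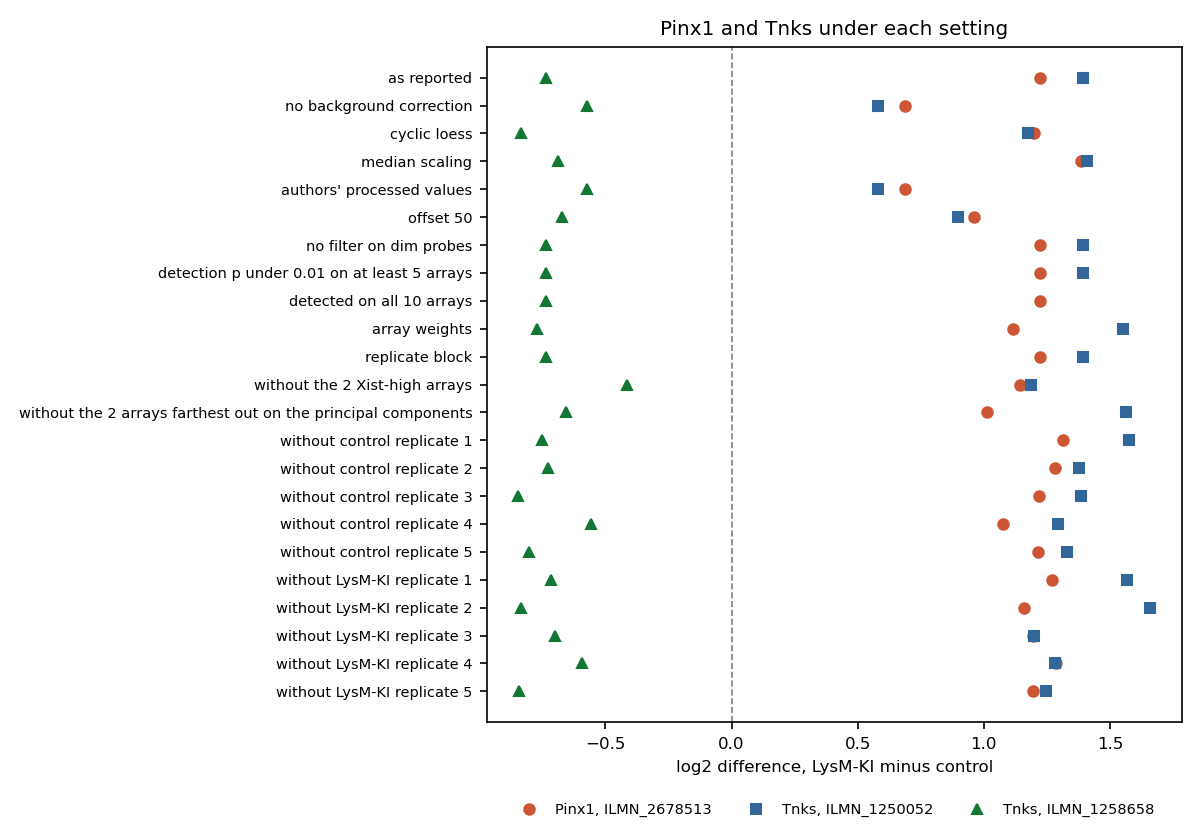
Log2 difference between LysM-KI and control cells for Pinx1 probe ILMN_2678513 and for Tnks probes ILMN_1250052 and ILMN_1258658 under each normalization, filter and omission of arrays (rows). Pinx1 lies between 0.69 and 1.39 throughout, and the Tnks probes stay on opposite sides of 0. ILMN_1250052 has no value where detection on all 10 arrays was required.

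Markers of other cells were read beside these results, as the mean normalized log2 level of the measured genes of each list. The 3 measured of 6 B cell and plasma cell genes had levels of 8.39 to 8.72 on control and 7.62 to 8.32 on LysM-KI arrays. The 3 of 7 stroma and endothelium genes had 6.13 to 7.24 on control and 5.53 to 5.75 on LysM-KI arrays. The mean of each of these lists was lower on every LysM-KI array, opposite in direction to Pinx1 probe ILMN_2678513 and alike in direction to Tnks probe ILMN_1258658. Within the first, the plasma cell genes Mzb1 and Jchain had log2 differences of -1.90 and -0.77. The groups of Mzb1 did not overlap, and its limma adjusted p of 0.392 equalled the smallest over all kept probes. The lists were chosen with earlier results of these data known, so the lower mean of this list is read no further. The B cell receptor gene Cd79b was at 0.83, with all 5 LysM-KI arrays above the control mean. Within the second, Pdgfrb and Sparc were at -1.04 and -1.40, each detected on 4 control and only 2 LysM-KI arrays. Both thus passed the filter mainly through the control group, where they were high, so the lower mean of this list is read no further. Pecam1, detected on all 10 arrays, was at -0.13 and had kept probes of both signs. Limma called 0 of them. Granulocyte and monocyte genes (3 of 8) ran from 5.27 to 9.08 in control and from 5.25 to 7.81 in LysM-KI cells. Erythroid genes (2 of 6) ran from 6.65 to 10.61 and from 6.44 to 9.02, and T cell and NK cell genes (3 of 7) from 6.31 to 6.90 and from 6.41 to 6.69. These last 3 lists overlapped between the groups. Detection varied within lists: Cd3g, Itgam, Col1a1 and Kdr were detected on 0 arrays, while Cd8a, Nkg7, S100a9 and Pecam1 were detected on all 10. The part of other cells in the Pinx1 and Tnks differences was not tested.

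Other genes of the pathway were read from 8 lists of 80 genes, of which 57 had a kept probe, 16 had only probes that were not kept and 7 had no named probe. Limma called 0 of the 57 higher and 0 lower, beside 0% of all kept probes. At an unadjusted p under 0.05 there were 3, beside 5.35% of all kept probes, and the groups did not overlap for 1, beside 0.91%. That gene, Amotl1, passed the filter through the control group, where it was high, so the count is read no further. Their median log2 difference was 0.063 (35 above 0 and 22 below), against 0.032 over all kept probes, of which 53.4% were above 0. Of the 24 pathway genes named below, 4 turned sign when 1 array was left out, namely Acd, Nop10, Ruvbl2 and Mxd1.

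All 4 remaining shelterin genes were measured, with a median log2 difference of -0.25. Acd (TPP1), which recruits telomerase, was at 0.48 (SE 0.66), or -0.11 without control replicate 2. Pot1a, one of the mouse proteins on the single-stranded overhang, was at -0.68 (SE 1.03), or -0.11 without LysM-KI replicate 5, and Terf2ip (RAP1), the partner of Terf2, at -0.12 (SE 0.20), with 1 of its 4 kept probes of the other sign. These differences were no larger than their errors, and without control replicate 4 the median was 0.08. Terf2ip read exactly the same value, 14.29, on LysM-KI replicates 2 to 5, and 14.24 on both control replicates 1 and 2. Equal values are equal ranks on the quantile scale, so its small SE may understate the spread and does not show an unchanged level.

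The telomerase particle and its assembly factors had 7 of 11 genes measured and a median of 0.063, or -0.014 without control replicate 5. The RNA gene Terc was detected on 0 arrays. Wrap53 (TCAB1), which brings telomerase to Cajal bodies, was at -0.65 (SE 0.46), with all 5 LysM-KI arrays below the control mean, and at -0.26 without control replicate 4. Nop10, a dyskerin partner, was at 0.28 (SE 0.49), and Ruvbl2, an ATPase of telomerase assembly, at 0.22 (SE 0.32). Without control replicate 5 these were -0.19 and -0.014. The lowest limma adjusted p of the list was 0.946.

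The CST complex and telomere replication list had 6 of 8 measured and a median of -0.059, which was 0.064 under median scaling and 0.17 without control replicate 5. The helicase genes Blm, Rtel1 and Wrn were at 0.73 (SE 0.46), 0.52 (SE 0.33) and -0.33 (SE 0.30). Wrn had a second kept probe of the other sign, as did Blm with 1 of its 3. Rtel1, which unwinds telomere loops, was detected on 2 control and 5 LysM-KI arrays and so passed the filter through the group where it was high.

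Telomeric chromatin genes gave a median of 0.26, with 8 of 9 measured genes above 0, beside 53.4% of all kept probes. This median stayed above 0 under every setting tried (0.18 to 0.44). The settings reuse the same arrays and the list was chosen with earlier results known, so the kept sign is no added support. Smc5, of the complex that promotes recombination between telomeres in cells without telomerase, was at 0.70 (SE 0.27, limma adjusted p = 0.881), and all 5 LysM-KI arrays lay above the control mean. Its partner Smc6 was at 0.76 (SE 0.44), although its other kept probe went the other way. Suv39h2, a histone H3 lysine methyltransferase of telomeric heterochromatin, was at 0.83 (SE 0.48), again with a second kept probe of the other sign. Atrx and Cbx5 (the latter at 0.007), which also counted as above 0, had kept probes of both signs as well. Limma called 0 of the 9.

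Tankyrase partners and substrates had 9 of 16 genes measured and a median of 0.10, or -0.006 without control replicate 3. Amotl1, an angiomotin that tankyrase marks for destruction, read 6.17, 5.75, 5.50, 6.84 and 5.61 in control replicates 1 to 5. LysM-KI replicates 1 to 5 read 4.81, 5.33, 4.88, 5.06 and 4.93. All 5 control arrays detected the probe and carried it through the filter, whereas 3 of the 5 LysM-KI arrays did not detect it. Every LysM-KI array was below every control array. The fitted log2 difference of -0.97 (SE 0.29, limma adjusted p = 0.721) therefore includes LysM-KI values that were not above background. Axin1, the scaffold of the beta-catenin destruction complex, was at 0.85 (SE 0.42), and Sh3bp2, an adaptor in immune cells and osteoclasts, at 0.62 (SE 0.30). For both, each of the 5 LysM-KI arrays was above the mean of the controls, and neither passed (limma adjusted p = 0.936 and 0.934).

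The other poly(ADP-ribose) polymerases and the enzymes that remove the polymer had 9 of 15 measured and a median of 0.011. That median ran from -0.068 to 0.12 over the settings tried. Parp14, an interferon-induced mono-ADP-ribosyltransferase, was at -1.35 (SE 0.57, limma adjusted p = 0.893), with all 5 LysM-KI arrays below the control mean and with its other kept probe of the other sign. Parp1, the main sensor of strand breaks of the family, was at 0.23 (SE 0.31), with 3 of 3 probes of that sign. Parg, which removes the polymer, was at 0.74 (SE 0.67).

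Regulators of the Tert gene had a median of 0.040 over 7 of 8 genes, and from -0.17 to 0.13 over the settings tried. Myc, an activator of Tert, was at -0.19 (SE 0.26) with a second kept probe of the other sign, and its partner Max at -0.10 (SE 0.23). Their antagonist Mxd1 was at 0.67 (SE 0.66), or -0.028 without control replicate 4, which did not detect it. The nucleolar list had a median of 0.15 over 6 of 7 genes, and from -0.065 to 0.28 over the settings tried. Npm1 (nucleophosmin) was at 0.31 (SE 0.24) and Nop56, of box C/D particles, at -0.51 (SE 0.40). Mcrs1, a nucleolar protein with reported binding to PINX1 in human cells, was at 0.54 (SE 0.34), with a second kept probe of the other sign. The Mcrs1 probe given was detected on 2 control and 4 LysM-KI arrays, so it passed the filter mainly through the group where it was high.

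**Figure D5:**
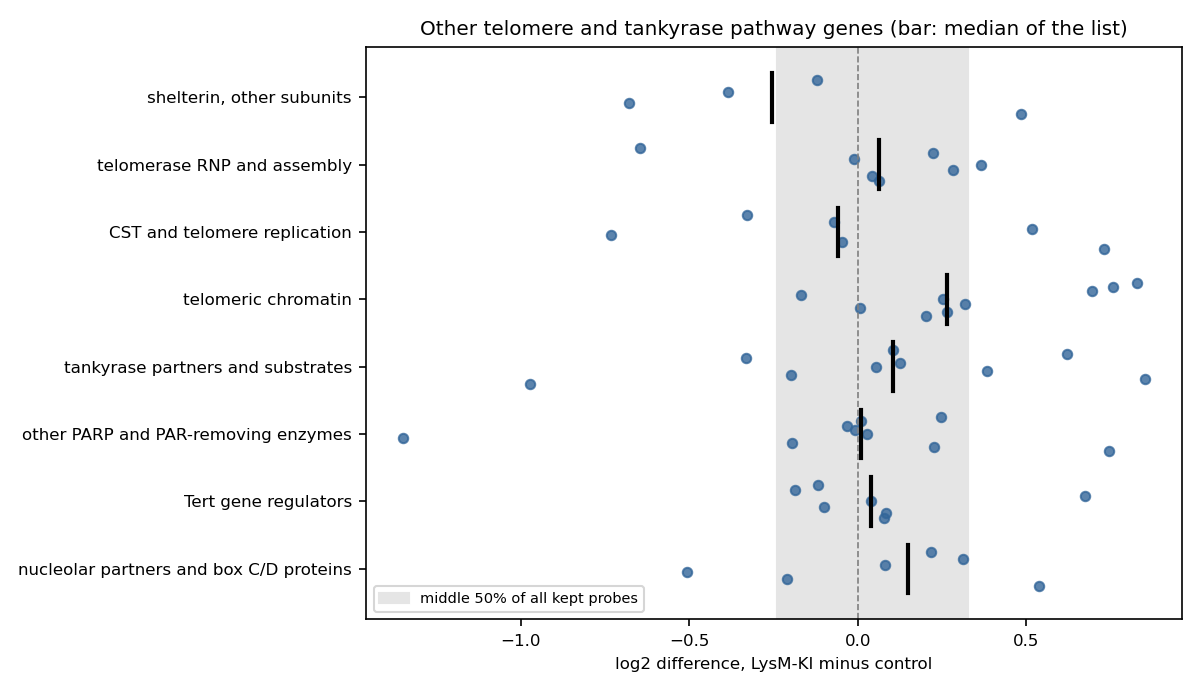
Log2 difference between LysM-KI and control cells for each of the 57 measured pathway genes (points), by list, with the median of each list (bar) and the middle 50% of all kept probes (grey, -0.24 to 0.33). Parp14 and Amotl1 are the lowest points, and the telomeric chromatin list has the highest median.

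The genes whose pattern was most like that of the Pinx1 probe were found after the group means had been removed, so that the contrast did not set the likeness. Candidates were the 7968 probes with a single gene symbol that were detected on all 10 arrays. Among them, the highest Pearson correlations over the 10 arrays were those of Imp3 (0.947), Zcchc17 (0.935), Znrf2 (0.931), Rc3h1 (0.931) and Utp3 (0.929). They are the extremes of many correlations over few arrays that share depth and quality. For Rc3h1 another probe gave -0.57 and for Znrf2 another gave 0.04. Between 0 and 4 of these 5 genes were again among the 5 most alike under other settings, so the order is not stable.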

How the data were processed

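Per the labels' protocols, total RNA was extracted with Trizol, cleaned on columns with DNase I and amplified to biotinylated cDNA with WT-Ovation Pico. The authors deposited a linear intensity per probe and array, not normalized, with background still in it. Beside it they deposited a fraction from 0 to 1 that rises with the intensity of its own array (rank correlation 0.990 to 0.998), so detection p was taken as 1 minus it. The authors' processed values are deposited on a log2 scale. They equal quantile-normalized log2 intensities minus each probe's median within 0.00122 (column medians -0.000897 to 0.00404), which settles scale, centring and direction. The sources used here give no scanner software or processing steps.

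The neqc function of limma 3.58.1 (R 4.3.3) normalized the intensities (normexp from detection p, offset 16, quantile, log2). The offset pulls differences of dim probes toward 0. Differences were tested with limma's moderated test, two-sided, over 17245 kept probes with Benjamini-Hochberg adjustment. The fit was also tried on simulated data, which does not measure its power for the differences seen here. The labels describe individual mice, so p-values measure the spread between mice and arrays. Replicate numbers occur in both groups, but no label says that they mark shared animals or days, so no block was used.

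The members and lists were chosen with earlier results of these data known. Named genes are all members, in each list up to 3 genes of smallest unadjusted p, the 5 genes most like Pinx1, and markers. The kept probe with the highest mean stands for a gene. Symbols came from the platform annotation, updated through RefSeq gene identifiers. Alternatives changed background correction, normalization, offset, filter, weights, pairing and arrays. Probe sequences were not used here.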

Additional observations from a re-analysis of the deposited data

Results flagged for a closer look

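In 34 sets of 5 values (17 probes in each group), 5 had an array far from the other 4, where chance gives about 1 in 20. The measure is the gap to the nearest array divided by the range, against a critical value of 0.71. Tert in LysM-KI replicate 5 had 0.967, at a log2 intensity of 8.08 beside 4.44 to 4.56. Terf1 probe ILMN_1256480 in LysM-KI replicate 2 had 0.763, at 8.33 beside 9.32 to 9.63. The dim Pinx1 probe ILMN_2546598 in control replicate 4 had 0.753, at 6.42 beside 4.82 to 5.21. Terf2 probe ILMN_1247870 in control replicate 2 had 0.731, at 5.91 beside 4.75 to 5.06. Dkc1 probe ILMN_1238284 in control replicate 3 had 0.730, at 8.68 beside 7.61 to 7.90.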

How the results depend on the processing

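In limma, 0 probes passed over all kept probes, over the other members and over the pathway genes under each of 22 alternatives, with 531 to 1848 probes at an unadjusted p under 0.05 (the highest without a filter, where 45281 were tested). Cyclic loess gave 430 higher and 450 lower, median scaling 783 and 180, against 587 and 335 in the reported fit. Median scaling moved the median of all probes to 0.13. Pinx1 moved to 0.69 on the authors' processed values and, nearly the same alternative, without background correction, and ran from 1.07 to 1.31 with each array left out. The replicate block left it at 1.22 and called 0 probes. With group means removed, same-numbered arrays correlated at -0.03 to 0.06 over all kept probes. These values show no strong shared deviation, but they cannot tell whether the numbers mark shared animals or days.

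Sign changes were found for 6 probes of Terf1, Terf2 and Dkc1. Terf1 ILMN_1256480 was 0.028 with array weights and 0.081 without the pair of arrays that stood apart on principal components, and -0.16 to 0.16 with each array left out. Terf1 ILMN_2574754 ran from -0.70 to 0.31 with each array left out. Terf2 ILMN_2623712 was -0.46 without the Xist-high arrays, -0.39 without the outlying pair and -0.12 to 1.13 with each array left out. Terf2 ILMN_2912318 was 0.21 as the mean of all kept Terf2 probes and -0.59 to 0.22 with each array left out. Dkc1 ILMN_1238284 was -0.014 without the Xist-high arrays. Dkc1 ILMN_2992965 was -0.021 without background correction, on the authors' values and with offset 50, -0.084 with cyclic loess, -0.066 with array weights, -0.24 without the Xist-high arrays, -0.25 without the outlying pair, and -0.31 to 0.25 with each array left out. The cause was not tested.

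Of the 5 genes most like Pinx1, 1 recurred without background correction, on the authors' values and without the Xist-high arrays, 4 with cyclic loess, 3 with median scaling or offset 50, 0 without the outlying pair, and 1 to 4 with each array left out. A stricter detection p of 0.01 kept the same number of member probes, 12. Signal is a limit for 7 of the 12 kept probes, which were not detected on every array. Leaving out arrays in turn for single pathway genes was added after seeing the data.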
